A study of Bos taurus with 8 samples.

Results

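Interferon-stimulated antiviral genes are the genes that cells switch on when interferon binds its receptors, and 37 of them were followed here on cattle oligonucleotide arrays, in RNA that the labels call placental. The genes were taken from a list of symbols, and the brightest probe of each gene, by its mean over the 8 arrays, stands for it. Of the 37 listed genes, 35 had a probe carrying their symbol and 33 of these had a probe bright enough to be tested, among 16916 named genes with a probe and 13197 tested in the whole series. IFI44 and IFI44L had no probe under their symbols, and the brightest probes of IFIT1 and SAMD9 were too dim for the test. The 35 measured genes had 69 probes in all. Hybridisations were made on 8 one-colour Agilent arrays, 4 labelled pregnant and 4 labelled non-pregnant, each with the Cy3-labelled RNA of 1 sample. The labels give fetal cotyledon, the villous tuft by which the ruminant fetus attaches to the uterus, as the tissue of every sample, female as the sex, and place the samples labelled pregnant after pregnancy and those labelled non-pregnant before it. They name cattle (Bos taurus) as the species, while their collection protocol speaks of pregnant buffalo from a slaughterhouse, so buffalo RNA may have been read with cattle probes. No label gives an age, a stage or the animal of origin, and p-values therefore measure only the spread between these 8 samples, which may be technical.

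Type I interferons, which include the ruminant pregnancy signal interferon tau, bind a receptor made of IFNAR1 and IFNAR2. The receptor's kinases activate transcription factors, among them STAT2 with its partner IRF9, which drive the promoters of the genes described here. Their products sense foreign nucleic acid, tag proteins with the ubiquitin-like ISG15, degrade viral RNA or block viral assembly. In ruminants the endometrium is known to raise many of them in early pregnancy, when the trophoblast secretes interferon tau.

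All levels are log2 signals relative to the 75th percentile of the same array, so that 0 is the level of a probe at that percentile. A difference is the mean of the arrays labelled pregnant minus the mean of the arrays labelled non-pregnant on that scale, with its standard error (SE), and is tested with limma over 4 arrays a group. A gene was called where its p-value, adjusted by Benjamini-Hochberg over all tested probes, lay below 0.05. Levels of different probes are not comparable, because each oligonucleotide binds with its own efficiency.

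The oligonucleotides themselves are shown for the genes whose result depends on which probe is read, and for the OAS family, whose members lie side by side. Positions are on the cattle build Btau_3.1, which the headers of the scanner files give, and the sources used here do not say whether a probe lies in a coding or an untranslated exon. The ISG15 probes, at chr16:48718914-48718973 and chr16:48718882-48718941 on the minus strand, overlap by 28 bases, which are in capitals.
ISG15 brighter probe: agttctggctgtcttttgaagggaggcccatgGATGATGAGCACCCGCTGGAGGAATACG
ISG15 dimmer probe: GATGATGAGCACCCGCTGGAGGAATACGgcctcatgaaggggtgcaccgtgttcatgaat
The brightest and dimmest HERC6 probes, at chr6:37128614-37128672 and chr6:37128644-37128703 on the minus strand, share the 29 bases in capitals.
HERC6 brightest probe: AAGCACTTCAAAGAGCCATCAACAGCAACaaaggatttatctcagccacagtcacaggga
HERC6 dimmest probe: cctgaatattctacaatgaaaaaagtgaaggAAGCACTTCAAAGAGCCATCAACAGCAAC
The RSAD2 probes lie 61 bases apart on the minus strand of chromosome 11, at chr11:92860213-92860272 and chr11:92860107-92860151, and share no run longer than 8 bases. The file places the dimmer one on fewer genome positions than it has bases.
RSAD2 brighter probe: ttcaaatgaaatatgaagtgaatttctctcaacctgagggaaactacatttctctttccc
RSAD2 dimmer probe: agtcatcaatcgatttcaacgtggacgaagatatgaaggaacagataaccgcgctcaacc
The BST2 probes, at chr7:5680454-5680513 and chr7:5688536-5688595 on the plus strand, share no run longer than 5 bases.
BST2 brighter probe: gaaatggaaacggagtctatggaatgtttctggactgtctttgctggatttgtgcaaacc
BST2 dimmer probe: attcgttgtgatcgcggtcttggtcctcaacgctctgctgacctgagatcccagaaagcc
The OAS probes lie on the minus strand of chromosome 17, and no 2 of them share a run longer than 7 bases.
OAS1X probe at chr17:64590856-64590915: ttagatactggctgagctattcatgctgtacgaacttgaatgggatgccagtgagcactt
OAS1Y probe at chr17:64574690-64574749: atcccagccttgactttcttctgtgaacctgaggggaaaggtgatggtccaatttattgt
OAS1Z brighter probe at chr17:64590651-64590710: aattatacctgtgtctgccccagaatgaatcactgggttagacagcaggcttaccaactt
OAS1Z dimmer probe at chr17:64606830-64606889: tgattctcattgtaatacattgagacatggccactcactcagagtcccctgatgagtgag
OAS2 probe at chr17:64548733-64548792: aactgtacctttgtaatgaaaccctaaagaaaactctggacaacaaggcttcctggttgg

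The antiviral genes were higher on the arrays labelled pregnant almost throughout. Of the 33 tested genes, 30 were called higher, 0 were called lower, and EIF2AK2, BST2 and STAT2 were not called. Over all 13197 tested genes, 62.8% were called in either direction, 29.9% higher and 32.9% lower. A difference of at least 2-fold was called higher for 27 of the 33, against 23.9% of all tested genes. Some antiviral genes passed the brightness filter only through the arrays labelled pregnant, so the 23 genes well above background on all 8 arrays are counted separately. Of those 23, 20 were called higher, 0 lower and 3 were not called, against 28.3% called higher and 32.7% called lower among the 11084 genes equally bright. On 19 of the 23 every array labelled pregnant lay above every array labelled non-pregnant, against 27% of genes of that brightness. Without array 4 labelled pregnant, which correlated less with its group than the other three, the same 30 genes were called higher. The median difference over the 23 genes was 2.28, beside -0.04 over all genes of that brightness. In tissue samples such as these, fewer cells of a type and less RNA per cell cannot be told apart.

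**Figure D1:**
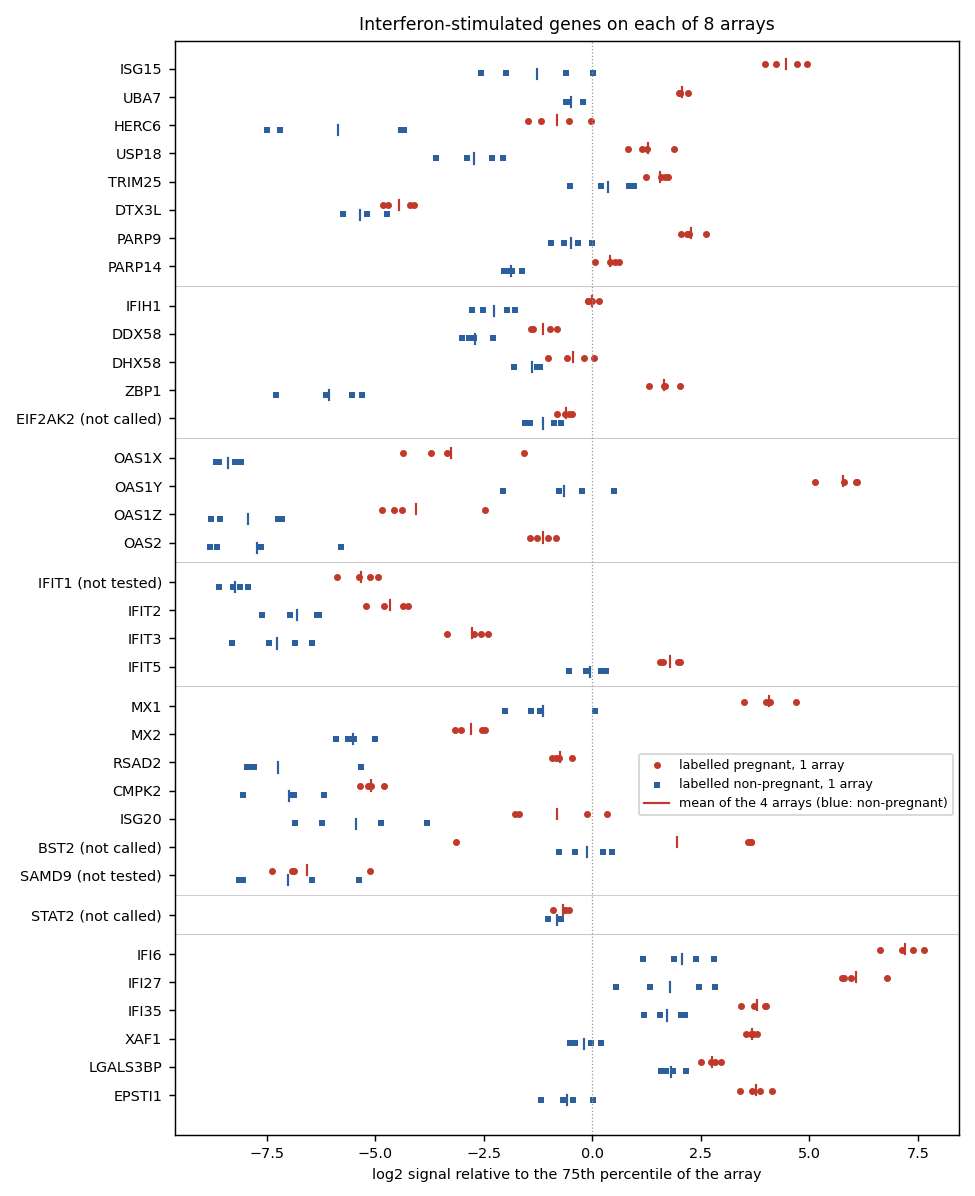
Log2 signal over the 75th percentile of its array for each of the 35 measured genes, grouped by role, with 1 point per array (red circles labelled pregnant, blue squares labelled non-pregnant) and a tick at each group's mean of 4. The points of the groups stay apart for 30 of the 35 genes and overlap for DTX3L, EIF2AK2, BST2, SAMD9 and STAT2. Among the 33 tested genes they stay apart for 29, against 28.4% of all tested genes. OAS1X, OAS1Z, IFIT1, IFIT2 and IFIT3 were well above background on no array labelled non-pregnant, so their separation involves dim values. For BST2, 1 point labelled pregnant lies at -3.14 while the other three lie at 3.58 or above.

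Markers of several cell types also differed between the groups, where 29.9% of all tested genes were called higher and 32.9% lower. Of the 11 tested trophoblast markers, 10 were lower on the arrays labelled pregnant and 1, ELF5, was higher. Of the 3 untested ones, ASCL2 was well above background on 3 arrays labelled pregnant and on none labelled non-pregnant, at least 6.99-fold higher, while TKDP1 was so on 0 and 2 arrays and PAG1 on none. The 14 measured trophoblast markers summed to 2.13 to 5.49 times the array's 75th percentile on the arrays labelled pregnant, against 846 to 1236 on those labelled non-pregnant. CDX2 and PLAC1, which define trophoblast, were well above background on no array labelled pregnant and on all 4 labelled non-pregnant, so the label fetal cotyledon goes against the markers on the arrays labelled pregnant. Of 10 tested endometrial markers, 7 were higher and 0 lower, with sums of 97.0 to 223 against 1.68 to 3.81, and ESR1 and HOXD10 were well above background on no array labelled non-pregnant. Erythroid markers were lower for 7 of 7 tested genes, with sums of 0.630 to 2.87 against 337 to 604. Because of these values the groups are named by their labels only.

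Immune cell markers did not move as a block. The shares over all tested genes, against which their counts are read, were 29.9% higher and 32.9% lower. Of 19 tested leukocyte markers, 11 were higher and 4 lower, and their sum of 45.5 to 124 on the arrays labelled pregnant lay below the 134 to 183 of the arrays labelled non-pregnant. Such a sum adds probes that bind with different efficiency, and CSF1R, AIF1 and LCP1, all called lower, had the highest means of the list on the arrays labelled non-pregnant. Of the T cell genes, CD3G and CD5 were well above background on no array labelled non-pregnant and CD3E on 1. CD3D, CD2, CD4 and CD8A were so on all 4, and CD4 was not called. Of 4 tested dendritic cell markers, 4 were higher, with a summed level of 9.59 to 40.2 against 1.25 to 2.38. TCF4 had the highest mean of that list in both groups, at 4.42 and 0.82, and made up most of the sum. SPIB and XCR1 did not rise well above background on any of the 8 arrays. The part of any of these cell types in the results below was not tested. All 8 arrays lay on 1 slide and 1 scan, with every array labelled pregnant in 1 row of the slide and every array labelled non-pregnant in the other, so that row and group cannot be told apart.

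The 8 listed genes of the ISG15 conjugation pathway and its neighbouring ligases were all called higher, against 29.9% of all tested genes. ISG15, the ubiquitin-like modifier itself, stood at 4.72, 3.98, 4.23 and 4.94 on the arrays labelled pregnant, against -0.61, 0.01, -1.99 and -2.57 on those labelled non-pregnant. The groups were far apart, and the arrays labelled non-pregnant differed more among themselves. ISG15 averaged 4.47 ± 0.44 on the arrays labelled pregnant and -1.29 ± 1.19 on those labelled non-pregnant (SD, n = 4 each), which differ by 5.76 (SE 0.55, limma adjusted p = 2.82e-05) or 54.1-fold. The overlapping ISG15 probe gave the same 5.76.

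UBA7, the enzyme that activates ISG15 for conjugation, measured 2.20, 2.03, 2.02 and 2.0 on the arrays labelled pregnant, against -0.56, -0.54, -0.23 and -0.61. Its groups were tight and far apart, with a difference of 2.54 (SE 0.17, limma adjusted p = 3.88e-06). USP18, the protease that removes ISG15 and dampens receptor signalling, measured 1.87, 0.83, 1.25 and 1.14, against -2.31, -2.06, -3.60 and -2.90. Its difference was 3.99 (SE 0.37, limma adjusted p = 2.37e-05), so the modifier, its activating enzyme and its protease were higher together.

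HERC6, an ISG15 ligase in the mouse, measured -0.53, -1.48, -1.20 and -0.03 on the arrays labelled pregnant. On those labelled non-pregnant it measured -7.51, -7.20, -4.33 and -4.41, well above background on only 2 of the 4. The difference was 5.05 (SE 0.78, limma adjusted p = 0.000504), and 3.0 under normexp background correction with an offset of 50, an alternative that raises dim signals. The HERC6 probe that shares 29 bases with this one did not rise well above background on any of the 8 arrays.

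PARP9 and DTX3L form a complex of an ADP-ribosyltransferase family member and a ubiquitin ligase. The probes of their genes and of PARP14 lie within 100.243 kb of chromosome 1. PARP9 measured 2.61, 2.03, 2.23 and 2.18, against -0.33, -0.02, -0.66 and -0.96, a difference of 2.75 (SE 0.25, limma adjusted p = 2e-05). PARP14, which attaches single ADP-ribose units, measured 0.62, 0.53, 0.40 and 0.07, against -1.84, -1.63, -1.99 and -2.03, a difference of 2.28 (SE 0.19, limma adjusted p = 1.46e-05). DTX3L gave the smallest difference of the 3, with -4.71, -4.12, -4.19 and -4.82 on the arrays labelled pregnant against -5.20, -4.72, -5.75 and -5.75, and its groups overlapped. That difference was 0.90 (SE 0.29, limma adjusted p = 0.0256). It was not called without array 2 or array 3 labelled pregnant (0.78 and 0.81, adjusted p = 0.0723 and 0.0710), nor without array 3 or array 4 labelled non-pregnant (0.77 and 0.76, adjusted p = 0.0669 and 0.0603), nor under quantile, median or no scaling (0.42, 0.51 and 0.41).

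TRIM25, a ubiquitin ligase that acts on the RNA sensor RIG-I, measured 1.58, 1.75, 1.67 and 1.22, against 0.95, 0.84, 0.19 and -0.51. The groups did not overlap, and the difference was 1.19 (SE 0.33, limma adjusted p = 0.0125). It was 0.80 (adjusted p = 0.103) when arrays were scaled by their median and 0.70 (adjusted p = 0.0728) without scaling.

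Of 5 nucleic acid sensors, 4 were called higher, against 29.9% of all tested genes, and EIF2AK2 was not called. ZBP1, which binds nucleic acid in the left-handed Z form, measured 2.01, 1.68, 1.64 and 1.30 on the arrays labelled pregnant, against -5.55, -5.30, -6.13 and -7.28, where it was well above background on 2 of 4. Its difference of 7.72 (SE 0.41, limma adjusted p = 1.21e-06) rests on dim values of the arrays labelled non-pregnant, and it was 5.61 under normexp background correction. The second ZBP1 probe gave 5.08, also called higher, so the size depends on the probe read.

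IFIH1, the sensor MDA5 of long duplex RNA, measured 0.16, -0.09, -0.02 and -0.10, against -1.78, -1.98, -2.77 and -2.52, a difference of 2.25 (SE 0.25, limma adjusted p = 6.56e-05). DDX58, the sensor RIG-I of uncapped RNA ends, measured -0.83, -1.41, -0.98 and -1.37, against -2.84, -2.73, -2.99 and -2.28, a difference of 1.57 (SE 0.23, limma adjusted p = 0.000363). Both groups of arrays were tight and apart for both of these probes. The second IFIH1 probe gave 1.28 (SE 0.72), was not called (limma adjusted p = 0.155), and its groups overlapped. The other 2 DDX58 probes gave 0.38 and 1.30 and were not called, and the median over the 3 probes gave 0.74 (adjusted p = 0.0269).

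DHX58, the regulatory relative LGP2 that lacks signalling domains, measured 0.05, -1.01, -0.60 and -0.18, against -1.24, -1.29, -1.21 and -1.81. The groups were separate by a small margin, and the difference was 0.95 (SE 0.27, limma adjusted p = 0.0141). It was 0.56 under median scaling and 0.47 without scaling, and was called under neither. EIF2AK2, the kinase PKR that stops translation on duplex RNA, measured -0.46, -0.80, -0.54 and -0.63, against -0.71, -0.89, -1.56 and -1.43, and the groups overlapped. Its difference of 0.54 (SE 0.23) was not called (limma adjusted p = 0.0729). The second EIF2AK2 probe gave 0.79 (SE 0.18) and was called higher (limma adjusted p = 0.00521), and the first was called at 0.68 without array 1 labelled non-pregnant (adjusted p = 0.0304).

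All 4 OAS genes were called higher, against 29.9% of all tested genes. OAS1X and OAS1Z passed the brightness filter only through the arrays labelled pregnant, so this count says little about them. They encode oligoadenylate synthetases, which answer duplex RNA by making short chains of adenylate, and cattle carry several OAS1 copies. OAS1Y measured 6.10, 5.14, 5.79 and 6.07 on the arrays labelled pregnant, against -0.78, 0.50, -0.23 and -2.06 on those labelled non-pregnant. It was well above background on all 8 arrays, and its difference was 6.42 (SE 0.50, limma adjusted p = 9.44e-06) or 85.5-fold. OAS2 measured -0.85, -1.45, -1.01 and -1.29, against -5.80, -8.64, -7.63 and -8.80, where only 1 array was well above background. Its difference was 6.57 (SE 0.60, limma adjusted p = 2.23e-05), and 3.27 under normexp background correction.

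OAS1X and OAS1Z were well above background on all 4 arrays labelled pregnant and on none labelled non-pregnant, so their changes are bounds. OAS1X measured -1.58, -4.35, -3.73 and -3.36, against -8.23, -8.60, -8.09 and -8.67, and was at least 16.1-fold higher. OAS1Z measured -2.47, -4.84, -4.38 and -4.57, against -7.15, -8.58, -7.23 and -8.79, and was at least 9.18-fold higher. No p-value is given for either gene, because both passed the brightness filter only through the arrays labelled pregnant. Array 1 was the highest of the arrays labelled pregnant for both. Such a bound sets the mean of the bright group against, for each dim array, the higher of the probe's own signal and the dimmest signal that still counted as well above background. For ASCL2, IFIT1 and IFNG that mean takes in an array that was not well above background, so their values are no strict bounds. These bounds hold for the processed signal only, since normexp gave differences of 1.91 for OAS1X and 1.33 for OAS1Z. The brighter OAS1Z probe lies 145 bases from the OAS1X probe, and whether the 2 readings come from separate transcripts was not tested. The 5 OAS probes lie within 58.157 kb, between chr17:64548733 and chr17:64606889.

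Of the IFIT genes, which encode proteins that bind foreign RNA ends, 3 of 3 tested members were called higher, against 29.9% of all tested genes. IFIT2 and IFIT3 passed the brightness filter only through the arrays labelled pregnant, so this count says little beyond IFIT5. The 5 probes of the 4 IFIT genes lie within 57.259 kb on chromosome 26, between chr26:11431248 and chr26:11488506. IFIT5 was the member well above background on all 8 arrays, at 2.02, 1.57, 1.96 and 1.61 against -0.54, 0.19, 0.32 and -0.15. The groups were apart, and the difference was 1.84 (SE 0.24, limma adjusted p = 0.000185).

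IFIT1, IFIT2 and IFIT3 were well above background on no array labelled non-pregnant. IFIT3 measured -2.40, -2.58, -2.73 and -3.36 on the arrays labelled pregnant, against -8.31, -6.85, -6.47 and -7.45, and was at least 18.3-fold higher. IFIT2 measured -4.37, -4.24, -4.80 and -5.22, against -6.34, -7.61, -6.30 and -6.96, and was at least 4.29-fold higher. For the same reason as with OAS1X and OAS1Z, no p-value is given for IFIT3 and IFIT2. Under normexp background correction the differences were 1.85 for IFIT3 and 1.0 for IFIT2. IFIT1 was well above background on 3 arrays labelled pregnant and was not tested. It measured -5.13, -5.88, -4.93 and -5.38, against -8.27, -8.61, -8.13 and -7.94, which puts it at least 3.81-fold higher with no test.

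Of the 6 tested genes with a direct antiviral product, 5 were called higher, against 29.9% of all tested genes. MX1, a dynamin-like GTPase that traps viral nucleocapsids, measured 4.0, 3.48, 4.09 and 4.68, against -1.41, 0.06, -1.20 and -2.01. The groups were far apart, with a difference of 5.20 (SE 0.44, limma adjusted p = 1.41e-05) or 36.8-fold. MX2 is its neighbour, and the probes of both genes lie within 48.811 kb on chromosome 1. MX2 measured -2.54, -3.02, -2.47 and -3.17, against -5.90, -5.01, -5.50 and -5.63, a difference of 2.71 (SE 0.26, limma adjusted p = 2.83e-05). The MX2 difference was 1.59 under normexp and was still called higher.

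RSAD2, or viperin, makes a chain-terminating nucleotide, and CMPK2, a nucleotide kinase, lies beside it. The genes' 3 probes span 44.791 kb of chromosome 11. RSAD2 measured -0.47, -0.84, -0.76 and -0.93, against -7.94, -5.33, -7.80 and -7.95, where only 1 array was well above background. The difference was 6.50 (SE 0.56, limma adjusted p = 1.54e-05), and 3.39 under normexp. The second RSAD2 probe, 61 bases away, was well above background on 1 array of each group, and its groups overlapped, with means of -6.10 and -6.83. CMPK2 measured -5.10, -5.36, -4.80 and -5.18, against -6.89, -6.87, -8.06 and -6.18, well above background on 3 and 1 arrays. Its difference was 1.89 (SE 0.37, limma adjusted p = 0.00194), and 0.68 under normexp (adjusted p = 0.0124).

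ISG20, an exonuclease that degrades RNA, measured -1.68, 0.33, -0.11 and -1.78, against -4.87, -3.80, -6.23 and -6.85, where 2 of 4 arrays were well above background. The difference was 4.63 (SE 0.73, limma adjusted p = 0.000609), and 3.03 under normexp, and the other 2 ISG20 probes gave 4.58 and 5.30. SAMD9, which restricts poxviruses, was not tested, as its brighter probe was well above background on 1 array of each group. That probe's levels were -7.39, -6.91, -6.86 and -5.13, against -6.45, -5.39, -8.06 and -8.13, and the groups overlapped. The dimmer SAMD9 probe was well above background on 2 arrays labelled pregnant and on none labelled non-pregnant, and was not tested. Its levels were -4.87, -5.37, -4.81 and -6.12, against -8.31, -8.63, -8.18 and -8.80, and the groups did not overlap.

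BST2, the membrane protein tetherin that holds budding virions at the cell surface, was decided by 1 array. Its brighter probe measured -3.14, 3.66, 3.58 and 3.66 on the arrays labelled pregnant, against -0.41, 0.25, 0.46 and -0.77 on those labelled non-pregnant. Array 1 labelled pregnant lay below every other array, and the other three lay above every array labelled non-pregnant. The difference of 2.06 (SE 1.42) was not called (limma adjusted p = 0.238), and without array 1 labelled pregnant it was 3.75 (adjusted p = 5.06e-05). The dimmer BST2 probe measured 2.01, 1.62, 1.06 and 1.14, against -2.01, -1.32, -1.14 and -0.99, with array 1 the highest. It was called higher at 2.82 (SE 0.30, limma adjusted p = 5.6e-05). The BST2 probes are assigned to different transcripts, and whether they read the same gene was not tested.

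**Figure D2:**
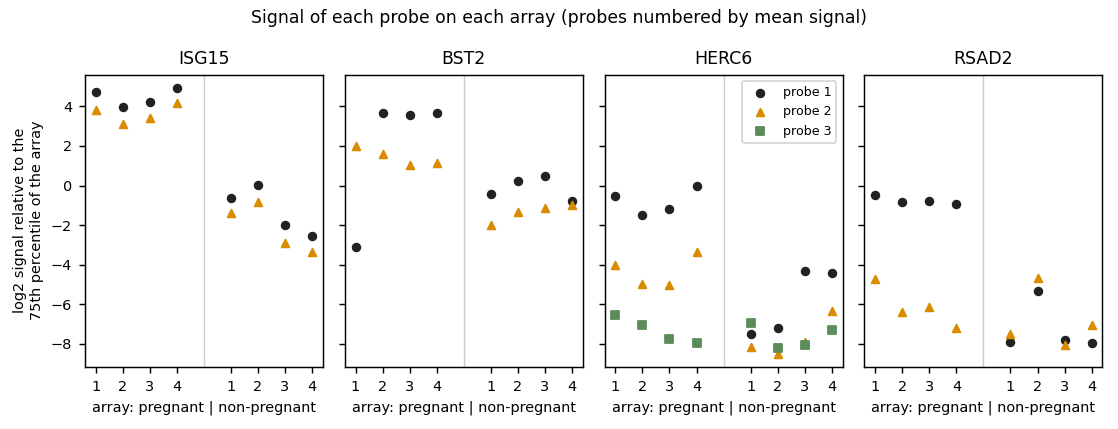
Log2 signal over the 75th percentile of its array of each probe of ISG15, BST2, HERC6 and RSAD2, with the 4 arrays labelled pregnant left of the 4 labelled non-pregnant in each panel and 1 symbol per probe. The ISG15 probes follow each other on every array, BST2 probe 1 drops to -3.14 on array 1 labelled pregnant where probe 2 stands at 2.01, and HERC6 probe 3 stays at -6.54 or below on all 8 arrays.

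STAT2, a partner of IRF9, was the only signalling gene of the set. It measured -0.53, -0.64, -0.63 and -0.91, against -0.73, -0.74, -0.71 and -1.03, and the groups overlapped. Its difference of 0.13 (SE 0.17) was not called (limma adjusted p = 0.546). The sign turned to -0.26 under median scaling and -0.36 without scaling, so no direction can be given.

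Among the remaining interferon-inducible genes, 6 of 6 with a probe were called higher, and each was well above background on all 8 arrays. Of all genes of that brightness, 28.3% were called higher. IFI6, a small membrane protein of the endoplasmic reticulum and mitochondria, measured 7.63, 6.62, 7.13 and 7.38 on the arrays labelled pregnant, against 2.39, 2.80, 1.89 and 1.17. The difference was 5.13 (SE 0.37, limma adjusted p = 5.95e-06) or 35.0-fold. IFI27, its relative, measured 6.77, 5.79, 5.76 and 5.95, against 2.46, 2.82, 1.32 and 0.54. Its difference was 4.28 (SE 0.50, limma adjusted p = 9.53e-05), and its 3 probes spanned only 4.24 to 4.28.

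XAF1, a pro-apoptotic partner of the inhibitor XIAP, measured 3.71, 3.53, 3.80 and 3.65, against -0.52, -0.39, 0.19 and -0.03. The narrow spread within both groups gave a difference of 3.86 (SE 0.21, limma adjusted p = 1.22e-06). EPSTI1, a gene named for epithelial-stromal interaction, measured 4.14, 3.68, 3.87 and 3.40, against -0.46, 0.01, -0.69 and -1.19, a difference of 4.35 (SE 0.29, limma adjusted p = 3.58e-06). Neither gene's groups overlapped. IFI35, a leucine-zipper protein, measured 3.73, 3.97, 4.0 and 3.43, against 2.12, 2.04, 1.56 and 1.18, a difference of 2.06 (SE 0.26, limma adjusted p = 0.000151). LGALS3BP, a secreted glycoprotein that binds galectin 3, measured 2.96, 2.50, 2.73 and 2.83, against 2.16, 1.69, 1.58 and 1.86. Its difference of 0.93 (SE 0.20, limma adjusted p = 0.00313) was the smallest of these, and it was 0.55 under median scaling and 0.45 without scaling, called under neither.

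IFI44 and IFI44L, related genes of the interferon response, had no probe under those symbols, but 6 probes carry their names in the file's descriptions, 1 of them IFI44 and 5 IFI44-like. These were looked up after the values were seen and are not among the 35 genes. All 6 were called higher, against 29.9% of all tested genes, with differences of 4.63 to 6.18. The probe described as IFI44 measured -0.16, -1.35, -0.90 and -0.94, against -8.17, -6.23, -7.46 and -6.21, with 1 array labelled non-pregnant well above background.

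Different probes of a gene gave the same direction wherever they were tested. Among the 25 genes with more than 1 probe, 17 had at least 2 tested probes, 38 in all. All tested probes were called higher in 13 of the 17 genes, and 0 genes had a probe called lower. Within a gene the largest and smallest differences lay a median of 0.66 apart, from 0.01 for ISG15 to 2.64 for ZBP1, and IFIT3 (2.28 and 4.50) and PARP14 (2.28 and 3.68) also spread widely. The 4 genes with a tested probe that was not called were BST2, DDX58, EIF2AK2 and IFIH1. Of all 69 probes, 54 were tested, 48 were called higher and 0 lower. Shares over all tested probes, or over all genes with several tested probes, were not computed. Over all tested genes, each read by its brightest probe, 29.9% were called higher and 32.9% lower. Probes of a gene share their RNA and are not replicates, and whether both BST2 probes read the same gene was not tested.

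**Figure D3:**
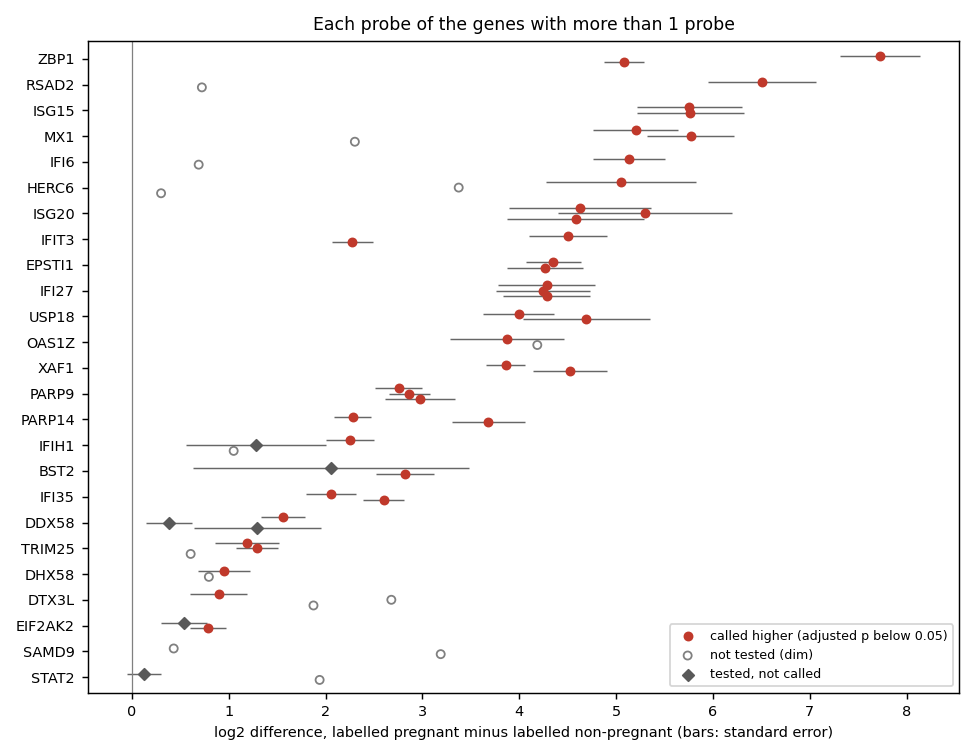
Log2 difference (labelled pregnant minus labelled non-pregnant) of each probe of the 25 genes with more than 1 probe, with standard errors as bars for tested probes, ordered by the brightest probe's difference. Every point lies right of 0, filled red circles are called higher, grey diamonds are tested but not called, and open circles are too dim to test. An open circle alone gives no direction, since the dimmer DHX58 probe, well above background on no array, also stands at 0.80.

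The arrays of a group were not alike in these genes. Over the 23 genes well above background on all 8 arrays, the SD among the arrays labelled non-pregnant exceeded that among the arrays labelled pregnant for 19, or 82.6%, against 56.8% of all genes of that brightness. The median SD of these genes was 0.29 on the arrays labelled pregnant and 0.44 on those labelled non-pregnant, beside 0.27 and 0.31 over all such genes. Array 4 labelled non-pregnant was the lowest of its group for 15 of the 23 genes, with a median gap of -0.53 to the mean of the other three. Array 2 labelled non-pregnant was the highest for 11, with a median gap of 0.49. Among the arrays labelled pregnant, array 1 was the highest for 15 genes and array 2 the lowest for 12, with median gaps of 0.28 and -0.30. Each of these median gaps was smaller than the median difference of 2.28 between the groups.

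**Figure D4:**
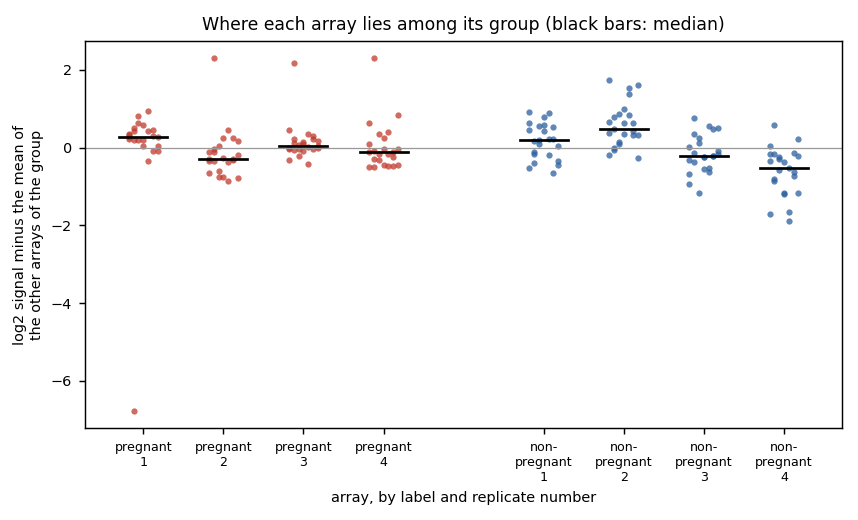
Gap on the log2 scale between each array and the mean of the other three of its group, for the 23 genes well above background on all 8 arrays, with 1 point per gene and array and a black bar at the median. The median gap reaches -0.53 on array 4 and 0.49 on array 2 labelled non-pregnant, and the lone low point on array 1 labelled pregnant is BST2, which is also the highest point on the other three.

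The rest of the interferon pathway held genes called in both directions. A list of 114 further genes gave 94 with a probe and 79 tested, of which 46 were higher, 11 lower and 22 not called, against 29.9% higher and 32.9% lower among all tested genes. Of its 69 genes well above background on all 8 arrays, 38 were higher, 10 lower and 21 not called, against 28.3% and 32.7% of all genes of that brightness. Among the ligands, 10 had a probe and only IFNT3, an interferon tau copy, was tested, with means of -5.12 on the arrays labelled pregnant and -3.51 on those labelled non-pregnant. That difference was -1.61 (SE 0.21, limma adjusted p = 0.000182), and no other ligand could be tested. IFN-TAU, IFNAA, IFNAG, IFNA16, IFNW1 and IFNK were well above background on no array. IFNB3 was so on 1 array labelled pregnant and 2 labelled non-pregnant. IFNAC was so on 1 array labelled pregnant and on none labelled non-pregnant. It measured -1.86 on array 1 labelled pregnant and -5.94, -5.43 and -5.44 on the others, so no bound is given. IFNG, the type II interferon of T and natural killer cells, was well above background on 3 arrays labelled pregnant and on none labelled non-pregnant, at least 9.12-fold higher with no test.

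Of 4 tested receptor subunits, 1 was called higher, against 29.9% of all tested genes, and 3 were not called. IFNAR2, of the type I receptor, had means of 1.36 and 1.48, a difference of -0.12 (SE 0.38, limma adjusted p = 0.797). Its partner IFNAR1 was well above background on 1 array, labelled non-pregnant, and IFNLR1, of the lambda receptor, on none. IFNGR1, which binds interferon gamma, was called higher by 2.01 (SE 0.28, limma adjusted p = 0.00026), with means of 1.42 and -0.58. Its partner IFNGR2 (0.65, SE 0.33) and the shared subunit IL10RB (0.13, SE 0.23) were not called.

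Of 12 receptor kinases, STAT and IRF factors, 9 were higher, 1 was lower and 2 were not called, all of them well above background on all 8 arrays. Of all genes of that brightness, 28.3% were called higher and 32.7% lower. IRF9 was higher by 2.50 (SE 0.22, limma adjusted p = 1.65e-05), while its partner STAT2 was not called. IRF7, the factor that amplifies interferon production, had a difference of 0.48 and was not called (limma adjusted p = 0.0591). The 4 called genes with the largest differences were IRF1, a factor induced by interferon gamma, at 4.63, STAT3 at 2.62, IRF9 and IRF2 at 1.99. The 1 gene called lower, named here after its value was seen, was the kinase JAK2 at -0.65.

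Sensing adaptors and kinases were higher for 5 of 9 tested genes and lower for 1, against 29.9% and 32.9% of all tested genes. STING1, the adaptor of the DNA sensor CGAS, was higher by 3.38, with 1 array labelled non-pregnant well above background, and TLR7 by at least 6.16-fold. TLR3, which reads duplex RNA in endosomes, was higher by 2.87 and CGAS by 1.09. The 1 gene called lower, again named after its value was seen, was MAVS, the adaptor shared by RIG-I and MDA5, at -1.06 (SE 0.17, limma adjusted p = 0.000726). Of 10 negative regulators, 2 were higher, 2 lower and 6 not called, beside the same shares of all tested genes. PTPN11, the phosphatase SHP2, was lower at -3.87, PIAS1 was higher at 1.84, TRIM21 higher at 1.57 and PIAS4 lower at -1.01.

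Other interferon-inducible genes outside the 37 were higher for 29 of 43 tested, lower for 6 and not called for 8. Of the 37 well above background on all 8 arrays, 23 were higher, 6 lower and 8 not called. GBP4, GBP5 and GBP6 encode guanylate-binding proteins, GTPases that attack pathogen vacuoles and respond strongly to interferon gamma. GBP4 was higher by 9.19 (SE 0.41, limma adjusted p = 5.01e-07), with 2 arrays labelled non-pregnant well above background. GBP6 and GBP5, as the array names them, were at least 96.0-fold and 38.0-fold higher, with no array labelled non-pregnant above background. IFI16, a nuclear DNA sensor well above background on all 8 arrays, was higher by 6.65 (SE 0.48, limma adjusted p = 6.08e-06).

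**Figure D5:**
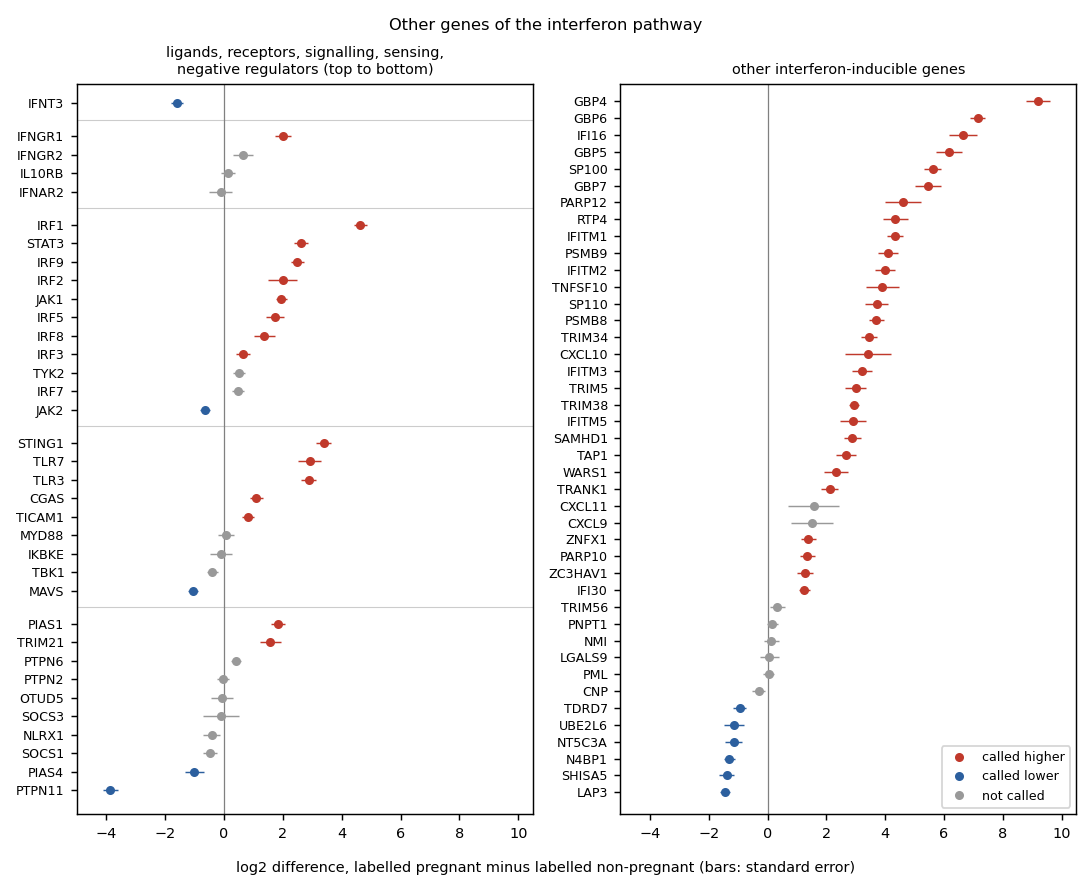
Log2 difference (labelled pregnant minus labelled non-pregnant) with its standard error for tested genes of the rest of the interferon pathway, with ligands, receptors, signalling factors, sensing genes and negative regulators at left and other inducible genes at right. Red marks genes called higher, blue called lower and grey not called, and the values run from -3.87 for PTPN11 to 9.19 for GBP4.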

How the data were processed

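RNA of 8 samples, 4 labelled pregnant and 4 labelled non-pregnant, was copied with an oligo-dT primer, labelled with Cy3 and hybridised to bovine arrays, per the labels' protocols. The deposited intensity values were read from the scans with Agilent Feature Extraction 11.5.1.1, per the file headers, and the submitters' processing notes name the same program. In these files the processed intensity equals the background-subtracted signal divided by a detrending factor (checked within 0.1% on spots without a surrogate value), with no scaling between arrays. A second deposited table holds log2 values of the same arrays. Its 75th percentile lay near 0 in every column (column medians -3.56, -3.61, -3.64 and -3.61 for the arrays labelled pregnant and -4.21, -4.01, -4.00 and -3.77 for those labelled non-pregnant), and its columns correlated with log2 processed intensity at 0.999 or above. Its scale and centring are known from these values alone.

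For the values given here, the 1319 control spots of each array and 119 outlier spots were left out, no spot was saturated, spots of a probe were averaged, and the array's 75th percentile of log2 intensity was subtracted. That percentile corresponded to intensities of 798 to 1347 on the arrays labelled pregnant and 1168 to 1797 on those labelled non-pregnant, where 60.6% to 66.0% and 63.7% to 69.5% of probes were well above background. The number of arrays limits the precision. Arrays labelled pregnant correlated at 0.977 to 0.989 among arrays 1 to 3 and at 0.943 to 0.951 with array 4, arrays labelled non-pregnant at 0.957 to 0.987, and arrays across the groups at 0.736 to 0.783. Of the 51282 probes, 35567 were given a gene symbol from the files or through a cattle reference table (assembly ARS-UCD2.0, from which only names were taken). A probe was tested where at least 4 of the 8 arrays showed it well above background, which held for 34627 probes. The fit used lmFit and eBayes of limma 3.58.1 (R 4.3.3), without covariates, and Benjamini-Hochberg adjustment over all tested probes. It was first tested on simulated data. A gene was its brightest probe over all 8 arrays.

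The members, lists and tests were chosen with earlier results of these data known. Every member is reported, and from the further pathway genes all measured ligands and receptors, IRF9, IRF7 and the 4 called genes with the largest differences in each other list are named, except for items that are not reported here. Same-numbered arrays were not treated as pairs, because their deviations from the group means correlated at only 0.01, 0.08, 0.05 and 0.15. Alternatives covered scaling, background correction, filter, probe choice, variance model, deposited values, replicate block and each array left out. A planned search of promoters for interferon response motifs was not run, since no promoter sequence was used here.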

Additional observations from a re-analysis of the deposited data

Results flagged for a closer look

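Of 70 groups of 4 arrays examined, 5 held an array whose gap to the nearest of the others exceeded 0.83 of the group's range, and chance alone gives about 1 in 20. BST2 read -3.14 on array 1 labelled pregnant, where the other three lay between 3.58 and 3.66. UBA7 read 2.20 on array 1 labelled pregnant, above the other three, which lay between 2.0 and 2.03. RSAD2 read -5.33 on array 2 labelled non-pregnant, above the other three at -7.80 to -7.95. DHX58 read -1.81 on array 4 labelled non-pregnant, below the other three at -1.21 to -1.29. STAT2 read -1.03 on array 4 labelled non-pregnant, below the other three at -0.71 to -0.74.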

How the results depend on the processing

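Between 26 and 32 of the antiviral genes were called higher, and 0 lower, under every alternative run except the strict filter, which tests only 23 genes and called 20. Their median difference of 2.75 over the 33 tested genes was 2.37 under median scaling, 2.27 without scaling, 2.02 under normexp and 2.28 under the strict filter, and 2.67 to 3.34 with each array left out, the highest without array 1 labelled pregnant. The median of all genes moved to -0.41 under median scaling and -0.51 without scaling, to 0.14 with the percentile over detected probes and to 0.23 without a filter, so changes are relative to those values. Calls over all genes were 47.6% higher ones, but 34.92% under median scaling and 31.67% without scaling, where 2570 genes were called higher in place of 3942. The STAT2 difference reversed to -0.26 under median scaling and -0.36 without scaling. With the replicate number as a block, 30 genes were called higher with a median of 2.75, and it changed no call of the 33 genes. Of 617 comparisons of a gene with its value under an alternative, 597 kept direction and call, 13 lost the call (TRIM25, DTX3L, DHX58 and LGALS3BP), 5 gained it (EIF2AK2 and BST2) and 2 reversed. The further pathway genes gave 38 to 55 higher and 9 to 14 lower. The causes were not tested. Dim probes limit the size of a difference: 1 of 140 gene values labelled pregnant and 12 of 140 labelled non-pregnant were surrogates set by the scanner software. Probes well above background on no array can also differ on this scale. Among such probes, PLSCR1 and IDO1 had differences of means of 0.78 and 0.80, APOBEC3A of 0.03 and SPIB of -0.15.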
